A study of Rattus norvegicus with 6 samples.

Results

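Classical cadherins and the catenins that bind them were followed in dissociated spinal cultures grown on carbon nanotubes. The genes were Cdh2, Cdh4, Cdh6, Cdh10, Cdh11, Cdh13, Ctnna1, Ctnnb1, Ctnnd1 and Ctnnd2, taken by the gene symbol of the array's probe annotation. Of these 10 genes, 9 had a probe set paired with that gene alone, with 18 such probe sets between them, among 14217 genes on the array that had one. Cdh4 was matched to no probe set and has no value here. Where a gene had several, the one of highest mean signal across the 6 arrays was taken as leading, and the others are given beside it.

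The 3 CNT cultures grew on glass coverslips covered with multiwalled carbon nanotubes (CNT), and the 3 control cultures on coverslips covered with polyornithine, a positively charged polymer to which neurons adhere. Cells of both groups came from spinal cords of rats of postnatal days 1 to 4, dissociated by enzymatic and mechanical treatment, and total RNA was taken after 8 days in culture, in a medium that held nerve growth factor on both substrates. The labels name Sprague-Dawley rats, whereas the methods name Wistar rats. Amplified RNA of each culture went on a separate Affymetrix rat array, so that n = 3 for each group, and precision is limited by this number.

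These cultures are mixtures. Markers of several cell types were measured in both groups, with the neuronal growth cone gene Gap43 at 11.75 to 12.07 log2 in CNT and 11.48 to 11.84 in control cultures, the astrocyte filament gene Gfap at 13.70 to 14.38 in CNT and 13.87 to 14.35 in control cultures, and the myelin gene Mbp at 14.22 to 14.72 in CNT and 14.34 to 14.56 in control cultures. In such bulk RNA, fewer cells of a type and less RNA per cell cannot be told apart. A measure of RNA integrity was uneven as well. For the beta-actin transcript, the 3' minus 5' signal, which grows as RNA is shortened, was 0.92, 2.20 and 1.72 log2 in CNT 1, CNT 2 and CNT 3, against 2.20, 0.62 and 0.66 log2 in control 1, control 2 and control 3.

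Cadherins are membrane proteins that join neighbouring cells by binding, in the presence of calcium, to cadherins on the next cell. Inside the cell, the tail of a classical cadherin holds beta-catenin (Ctnnb1), which recruits alpha-catenin (Ctnna1) and through it the actin filaments, while p120-catenin (Ctnnd1) and the neural delta-catenin (Ctnnd2) bind closer to the membrane and keep the cadherin at the surface. Beta-catenin also has a second role, as the transcriptional partner of Tcf and Lef factors in Wnt signalling. In the nervous system, cadherins sort groups of neurons, guide outgrowth along other cells and hold synapses together. Cdh2 is the neural cadherin, N-cadherin, and belongs with Cdh4 to the type I cadherins. Cdh6, Cdh10 and Cdh11 are of type II, and Cdh11 is best known from mesenchymal cells. Cdh13 (T-cadherin) is an atypical member that is anchored by a lipid and lacks the tail to which catenins bind.

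Sequence upstream of the start of transcription was at hand from RefSeq (build GRCr8) for 5 of the 9 measured genes, namely Cdh6, Cdh10, Ctnnb1, Ctnnd1 and Ctnnd2. The table used holds no entry for Cdh2, Cdh11, Cdh13 and Ctnna1. Among the 10 pairs of these 250-base windows, that of Cdh6 and Cdh10 had the highest local alignment score, 29, against 9 to 15 for the other 9 pairs. The aligned stretches are shown because they are a feature that these type II cadherin genes, both on chromosome 2, share apart from their expression. The capitals mark their longest shared run, and both sequences read 5′ to 3′ on the strand of the gene.
Cdh6 (chr2:63952289-63952348, minus strand): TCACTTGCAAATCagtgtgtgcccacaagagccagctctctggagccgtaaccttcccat
Cdh10 (chr2:70355439-70355498, plus strand): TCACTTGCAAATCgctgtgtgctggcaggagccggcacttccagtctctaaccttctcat
In the alignment, 46 of 59 paired positions were identical (78.0%). The shared run of 13 bases, searched on both strands, stood in the windows of 2 of 27457 RefSeq genes (0.00728%), which are the 2 genes it was taken from. Its inner part TGCAAAT, also searched on both strands, stood in 3.44% of all windows. As a part of the shared run it had to stand in the same 2 genes, and it stood in no other of the 5 members. The stretch lies 61 to 2 bases before the annotated start of Cdh6 and 250 to 191 bases before that of Cdh10, where the window ends. These matches describe the sequence and say nothing of what binds there. The arrays did not show the same course for the pair, as described with their values.

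Cdh2 was the 1 member whose leading probe set did not overlap between the groups, and it did not pass adjustment. Its log2 expression was 11.51, 11.53 and 11.36 in CNT cultures 1, 2 and 3 and 11.96, 11.81 and 11.62 in control cultures 1, 2 and 3. Every CNT culture thus lay below every control culture, though the highest CNT and the lowest control value were close. The means were 11.47 ± 0.09 (SD, n = 3) in CNT and 11.80 ± 0.17 (SD, n = 3) in control cultures, a log2 fold change, CNT over control, of -0.33 with a standard error (SE) of 0.12 and a 95% confidence interval from -0.63 to -0.04, or a fold of 0.795. The unadjusted p from limma was 0.0331 and the p adjusted over all genes was 0.999, so Cdh2 did not pass the threshold of 0.05 after adjustment. The exact permutation p (two-sided) was 0.1, which is the smallest that groups of 3 allow. Of all 14217 genes, 2.05% had every CNT array below every control array and 5.94% had every CNT array above. Among the 9 members Cdh2 was the 1 gene of the first kind and there was none of the second. A count of 1 among 9 genes is too small to be told apart from these shares.

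A second probe set of Cdh2 showed the same order of the groups. It read 11.02, 10.89 and 10.49 in CNT and 11.42, 11.67 and 11.06 in control cultures, and the groups again did not overlap. Its log2 fold change was -0.59 (SE 0.21, unadjusted p = 0.0324 and adjusted p = 0.999 over all probe sets, from limma). The third probe set of Cdh2 had a much lower signal, 6.45, 6.50 and 6.48 in CNT and 6.63, 6.41 and 6.48 in control cultures, and its log2 fold change was -0.03 (95% confidence interval -0.27 to 0.21). Cdh2 kept its negative sign when any one array was left out, with log2 fold changes from -0.42 without control 3 to -0.25 without control 1. The unadjusted p exceeded 0.05 in 5 of these 6 fits, the one without control 3 being the exception. Leaving out the pair of arrays whose beta-actin difference was 2.20, control 1 and CNT 2, gave -0.28, and taking that difference as a covariate gave -0.37.

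**Figure D1:**
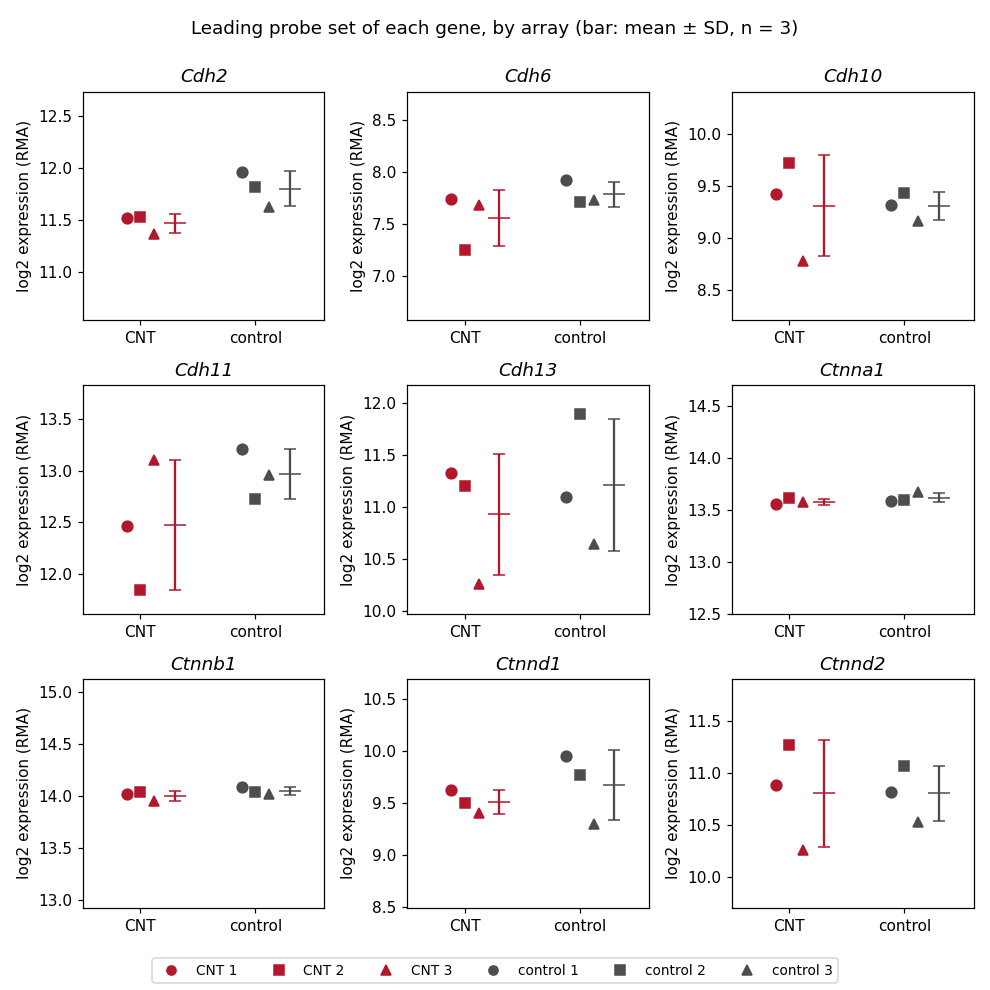
Log2 expression (RMA) of the leading probe set of each gene, with CNT cultures in red on the left and control cultures in grey on the right of each panel, symbols for cultures 1 to 3, and bars for the mean ± SD (n = 3). Each vertical axis spans 2.2 log2 units, and Cdh2 is the panel in which the groups do not overlap.

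Cdh11, cadherin of mesenchymal cells, had the most negative log2 fold change of the leading probe sets. It was at 12.47, 11.85 and 13.10 in CNT and at 13.21, 12.73 and 12.96 in control cultures. CNT 2 was the lowest culture and CNT 3 reached the range of the controls, so the groups overlapped. The log2 fold change was -0.49 (SE 0.32, fold 0.711, adjusted p = 0.999 from limma) with a 95% confidence interval from -1.28 to 0.29. Single arrays set much of its size. Leaving out CNT 2 gave -0.18, leaving out CNT 3 gave -0.81 (unadjusted p = 0.0182 and adjusted p = 0.750 from limma), and leaving out both control 1 and CNT 2 gave -0.06. A further probe set, at 8.52, 8.24 and 9.35 in CNT and 9.25, 8.87 and 8.94 in control cultures, was likewise lowest in CNT 2, with a log2 fold change of -0.32 (SE 0.30). The dimmest of its 3 probe sets, at 7.27 to 7.46 in CNT and 7.23 to 7.33 in control cultures, was not, and had a log2 fold change of 0.13 (SE 0.10).

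Markers of fibroblasts and meningeal cells moved with Cdh11. The mean log2 value of these 26 genes was 11.15, 10.16 and 11.57 in CNT cultures and 11.72, 11.43 and 11.43 in control cultures, with CNT 2 the lowest in both measures. Their log2 fold changes were negative for 24 of the 26 (median -0.48, which was -0.09 without CNT 2 and -0.90 without CNT 3), and none of the 26 read under 5.40 log2 in any culture, the lowest being Aspn, a small matrix proteoglycan gene, in CNT 2. Smooth muscle and pericyte markers were negative in 11 of 12 (median -0.58, but -0.23 without CNT 2, -0.31 without control 1 and 0.06 without both), with mean log2 values of 10.26, 9.39 and 10.61 in CNT cultures and 11.04, 10.25 and 10.54 in control cultures. Microglia and macrophage markers were positive in 13 of 14 (median 0.29, but 0.10 without control 1, 0.15 without CNT 2, 0.00 without both and 0.52 without CNT 3). Endothelial markers were positive in 10 of 10 (median 0.13, but -0.005 without CNT 2 and 0.21 without CNT 3). Their log2 fold changes ran from 0.01 for Cldn5, at a low mean signal of 5.62 log2, to 0.99 for Tie1. Astrocyte markers were negative in 9 of 11 (median -0.07, but 0.01 without CNT 3 and -0.21 without control 3). Neuron markers were negative in 10 of 18, oligodendrocyte markers in 5 of 13 and Schwann cell markers in 3 of 10. Of all genes, 41.5% were negative. The part of these cells in the values of Cdh11 was not tested. Across the 6 arrays the genes outside the members with the pattern most like that of Cdh11 were Ogn, Ltbp1 and Col5a2 (Pearson's r of 0.999, 0.996 and 0.996 over 6 arrays), which encode proteins of the extracellular matrix. Their log2 fold changes were -1.12, -0.74 and -0.46. For Cdh2 the nearest were Col11a1, a fibrillar collagen gene, Lrp2, an endocytic receptor gene, and Brat1 (r of 0.990, 0.989 and 0.980), with log2 fold changes of -0.70, -0.86 and -0.17. For Ctnnb1 they were Pik3ip1, LOC102548260 and Gria3 (r of 0.989, 0.985 and 0.983), with log2 fold changes of -0.23, -1.01 and -0.46. These likenesses were picked as the highest of all genes and are a description, with no test.

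Cdh6 (K-cadherin), the dimmest member, read 7.74, 7.25 and 7.68 in CNT and 7.92, 7.71 and 7.73 in control cultures. CNT 2 was again the lowest culture. The log2 fold change was -0.23 (SE 0.16, 95% confidence interval -0.62 to 0.16), which shrank to -0.08 when CNT 2 was left out. Cdh6 was the 1 member among the dimmest 30% of genes, and the other 8 lay above that limit.

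Cdh10, whose upstream stretch resembles that of Cdh6, followed another course. It read 9.43, 9.73 and 8.78 in CNT and 9.32, 9.44 and 9.17 in control cultures, so that CNT 2, the lowest culture for Cdh6, was the highest for Cdh10. The group means were 9.31 ± 0.48 (SD, n = 3) in CNT and 9.31 ± 0.14 (SD, n = 3) in control cultures, a log2 fold change of 0.01 (95% confidence interval -0.60 to 0.61). The interval leaves room for a fold of 0.661 to 1.53.

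Cdh13 varied most among the control cultures. Its leading probe set read 11.33, 11.21 and 10.26 in CNT and 11.10, 11.90 and 10.64 in control cultures. Control 2 was the highest and CNT 3 the lowest culture. The log2 fold change was -0.28 (SE 0.41), and it was positive without CNT 3 (0.05) or without control 2 (0.06). All 3 probe sets of Cdh13 ordered the control cultures alike, and in each CNT 3 was the lowest culture. Their log2 fold changes were -0.28, -0.17 and -0.21.

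Among the catenins, the leading probe sets of Ctnna1 and Ctnnb1 had the narrowest spread of all members. Ctnna1 read 13.55, 13.61 and 13.57 in CNT and 13.59, 13.59 and 13.66 in control cultures, a log2 fold change of -0.04 with a 95% confidence interval from -0.24 to 0.17. Ctnnb1 read 14.02, 14.03 and 13.95 in CNT and 14.09, 14.03 and 14.02 in control cultures, a log2 fold change of -0.05 with an interval from -0.26 to 0.16. For these leading probe sets the intervals place the fold between 0.844 and 1.13 for Ctnna1 and between 0.837 and 1.12 for Ctnnb1. Further probe sets of Ctnnb1 gave folds outside that range, 1.22 for the second and 0.679 for the third.

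The 4 probe sets of Ctnnb1 did not tell the same story. The second by mean signal read 12.91, 13.14 and 12.81 in CNT and 12.77, 12.59 and 12.65 in control cultures, with every CNT culture above every control culture. Its log2 fold change was 0.28 (SE 0.12, unadjusted p = 0.0592 and adjusted p = 0.999 from limma). The third read 11.43, 10.39 and 10.51 in CNT and 10.55, 12.14 and 11.31 in control cultures, a log2 fold change of -0.56 (SE 0.47) with overlapping groups. The dimmest, at 5.40, 5.50 and 5.25 in CNT and 5.27, 5.15 and 5.20 in control cultures, had one of 0.18 (SE 0.11). Over all 18 member probe sets, 2 had every CNT array below every control array, both of Cdh2, where the share over all 20826 probe sets was 2.43%. The second probe set of Ctnnb1 was the 1 that had every CNT array above, where that share was 5.53%. At an unadjusted p under 0.05 the same 2 probe sets of Cdh2 were lower and none was higher, against 1.02% lower and 1.94% higher over all probe sets. Of the 18, 13 had a negative log2 fold change, against 44.8% of all.

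The third Ctnnb1 probe set moved with the beta-actin difference. CNT 2, CNT 3 and control 1, the 3 cultures with the largest beta-actin difference, were its 3 lowest, at 10.39, 10.51 and 10.55. With that difference as a covariate its log2 fold change was -0.20 (SE 0.23), and it was -0.95 without control 1 and -0.16 without control 2. The second probe set of Ctnnb1 had a log2 fold change of 0.23 with the covariate. The part of RNA integrity in the difference between these probe sets was not tested, and where each one lies along the transcript was not used here.

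**Figure D2:**
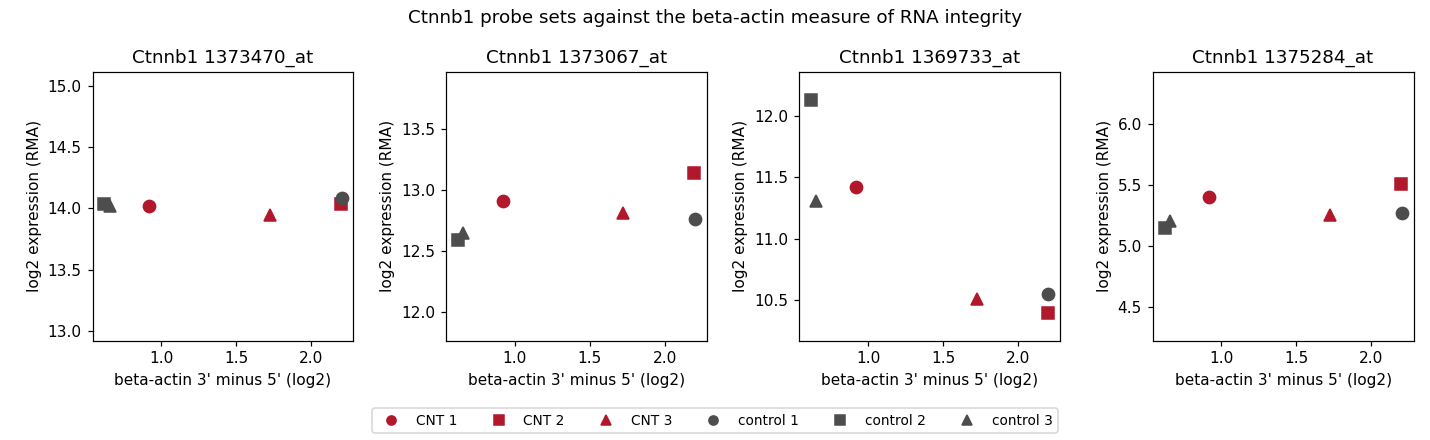
Log2 expression (RMA) of the 4 probe sets of Ctnnb1 on each array against the excess of the 3' over the 5' beta-actin probe set (log2), CNT cultures in red and control cultures in grey. The third panel falls to 10.39 in CNT 2, while the leading probe set stays between 13.95 and 14.09.

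Ctnnd1 (p120-catenin) read 9.63, 9.50 and 9.40 in CNT and 9.95, 9.77 and 9.30 in control cultures. Control 3 was the lowest culture of all, while the other control cultures lay above every CNT culture. The log2 fold change of -0.17 (SE 0.18) was -0.35 without control 3 and -0.03 without control 1. Ctnnd2 (delta-catenin), which is expressed mainly in neurons, read 10.89, 11.27 and 10.26 in CNT and 10.82, 11.07 and 10.53 in control cultures. Its group means were equal to the second decimal, 10.81 ± 0.51 in CNT and 10.81 ± 0.27 in control cultures (SD, n = 3 each), with a log2 fold change of 0.00 and a 95% confidence interval from -0.68 to 0.68. In both groups culture 2 was the highest and culture 3 the lowest for Ctnnd2, as they were for Cdh10.

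**Figure D3:**
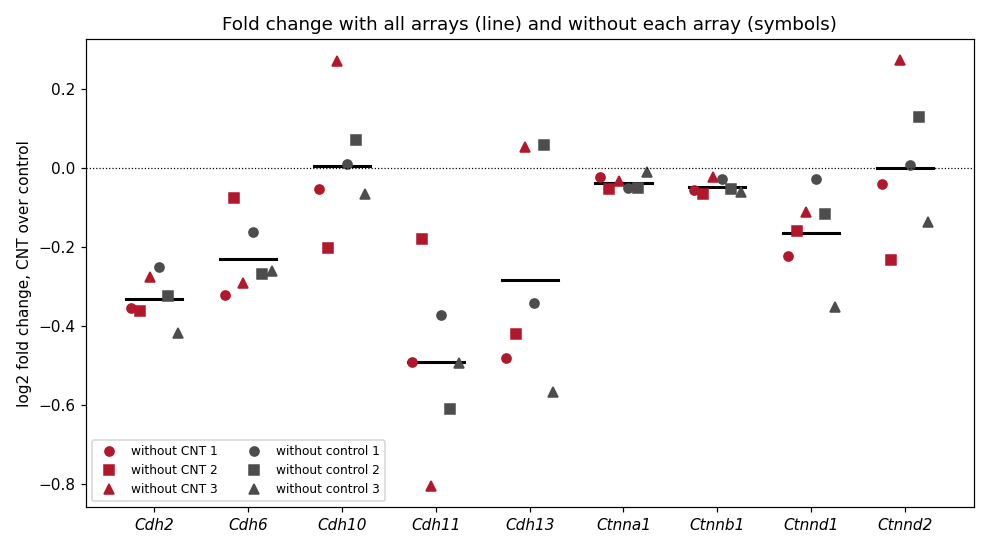
Log2 fold change (CNT over control) of each leading probe set with all 6 arrays (black line) and without each array in turn (red, a CNT culture left out, and grey, a control culture left out). Cdh2 stays between -0.42 and -0.25, while Cdh10, Cdh13 and Ctnnd2 lie on both sides of 0.

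No member had an adjusted p under 0.05 from limma. The same was true of every one of the 14217 genes (0.0% called higher and 0.0% lower). At an unadjusted p under 0.05, 1 member, Cdh2, was lower and none higher, where 0.71% of all genes were lower and 2.41% higher. The rank product is the test the study names. It was run here over all 9 pairs of arrays on the manufacturer's probe sets, whereas the study treated each sample as its own origin on custom gene files. Run so, the rank product called none of the 9 members, while it called 61 genes higher (0.429%) and 5 lower (0.0352%) among all genes. Of the 9 members, 7 had a negative log2 fold change, against 41.5% of all genes, with a median of -0.17 against 0.03. The rescalings lowered the genes as a whole, and the share of all genes that were negative was 51.6% with quantile normalization, 51.7% with cyclic loess and 52.3% with median centring, where all 9 members were negative. Cdh10 and Ctnnd2, so close to 0, had a negative sign with each of these rescalings. The median of the members was -0.03 without CNT 3, -0.05 without control 1 or without control 2, and -0.26 without control 3.

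**Figure D4:**
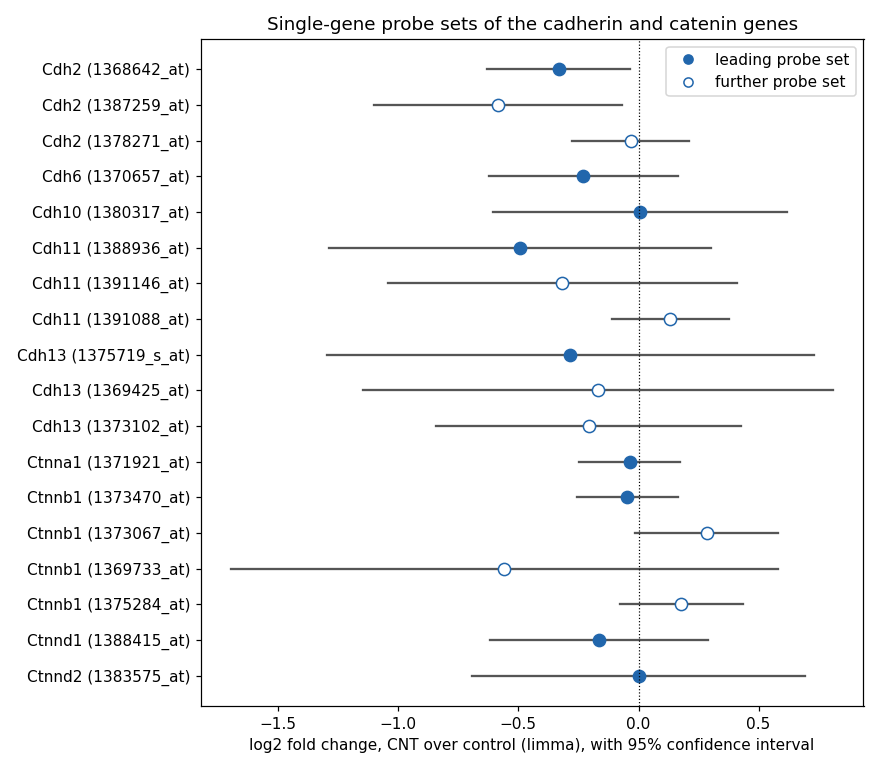
Log2 fold change (CNT over control, limma) with its 95% confidence interval for all 18 probe sets, filled circles for the leading probe set of a gene and open circles for the others. The intervals of the first 2 Cdh2 probe sets lie below 0, and those of the 4 Ctnnb1 probe sets include 0 and point in both directions.

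Related genes were read through lists of junction and Wnt genes. Their counts stand beside shares over all 14217 genes. Of these, 41.5% were negative, 2.05% had every CNT array below every control array and 5.94% had every one above. With the rescalings, 51.6% to 52.3% were negative. Among 8 other classical cadherins, 5 log2 fold changes were negative and 3 positive, the median was -0.07, and none came with an unadjusted p under 0.05. That median ran from -0.18 without control 3 to 0.01 without CNT 3. Without the dimmest 30% of genes, which removes most of this list, it was -0.80, the value of Cdh3 itself. Cdh1, the epithelial E-cadherin, was at a low signal. It read 5.33, 5.51 and 5.69 in CNT and 6.28, 5.53 and 6.46 in control cultures, a log2 fold change of -0.58 (SE 0.26). Cdh3, the placental P-cadherin, read 9.13, 7.80 and 8.88 in CNT and 10.25, 9.20 and 8.76 in control cultures, with a log2 fold change of -0.80 (SE 0.49). The groups overlapped for both. Cdh22 spanned 6.96 to 9.64 in CNT and 7.79 to 10.19 in control cultures (log2 fold change -0.97, SE 0.86). Cdh8, a type II cadherin at a low signal, lay above in every CNT culture by little, at 5.82 to 5.87 against 5.67 to 5.80 in control cultures.

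Of 8 other catenins and plakophilins, 7 were negative in log2 fold change, against 41.5% of all genes, and the median was -0.22. In 3 of them every CNT culture lay below every control culture, where the share over all genes was 2.05%. Ctnnal1, which encodes a relative of alpha-catenin, read 8.64, 8.46 and 8.58 in CNT and 8.81, 8.87 and 8.76 in control cultures (log2 fold change -0.25, SE 0.10, unadjusted p = 0.0401 from limma). Jup, or gamma-catenin, the close relative of beta-catenin that also joins desmosomes, read 10.42, 10.18 and 10.63 in CNT and 10.85, 10.66 and 10.70 in control cultures (log2 fold change -0.32, SE 0.14). Arvcf, of the p120-catenin family, read 9.92, 9.76 and 9.95 in CNT and 9.97, 9.98 and 10.28 in control cultures (log2 fold change -0.20, SE 0.12). For Jup and Arvcf the highest CNT and the lowest control value were close. Ctnna2, the neural alpha-catenin, had a log2 fold change of -0.54 (SE 0.32) with overlapping groups. Ctnnbip1, an inhibitor of beta-catenin binding to Tcf, was the 1 gene of this list with a positive value, 0.07 (SE 0.14), and Pkp4 was at -0.01 (SE 0.25).

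Among 27 partners of the adherens junction, 19 were negative in log2 fold change and the median was -0.12 (-0.06 without CNT 2 or without CNT 3, and -0.07 without control 3), and none had an unadjusted p under 0.05. Actn1, a cross-linker of actin filaments, read 13.35, 13.14 and 13.23 in CNT and 13.69, 13.43 and 13.42 in control cultures (log2 fold change -0.28, SE 0.12). Magi1, a junction scaffold, read 10.59, 10.48 and 10.24 in CNT and 10.67, 10.97 and 10.63 in control cultures (log2 fold change -0.32, SE 0.14). Neither gene's groups overlapped, where 2.05% of all genes had every CNT array below every control array. In both genes the highest CNT and the lowest control value were close. Afdn, or afadin, which links nectins to actin, had a log2 fold change of -0.29 (SE 0.14), and Iqgap1, a scaffold at junctions, one of 0.25 (SE 0.12), both with overlapping groups. The small GTPase genes Rac1 and Rap1b were at -0.02 (SE 0.13) and 0.09 (SE 0.11).

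On the Wnt side, 15 of 22 genes of the beta-catenin machinery had a negative log2 fold change (median -0.07, but 0.03 without CNT 3, 0.04 without control 2 and -0.18 without control 3) and none had an unadjusted p under 0.05. Lrp6, a Wnt co-receptor gene, read 8.75, 9.40 and 9.74 in CNT and 10.16, 9.79 and 9.76 in control cultures (log2 fold change -0.61, SE 0.27), and no CNT culture reached the controls, though CNT 3 lay just below control 3. Lef1, a transcriptional partner of beta-catenin and also one of its targets, went the other way, at 9.58, 9.74 and 9.45 in CNT and 8.87, 9.38 and 9.33 in control cultures (log2 fold change 0.39, SE 0.17). Apc, a scaffold of the complex that degrades beta-catenin, had a log2 fold change of -0.22 (SE 0.14), Lrp5 of -0.37 (SE 0.30), Csnk1a1, a kinase of that complex, of -0.05 (SE 0.10), and Ctbp1, a co-repressor gene, of 0.03 (SE 0.12).

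The 19 genes listed here as beta-catenin targets fell on both sides, 11 negative and 8 positive, with a median of -0.06. That median ran from -0.17 without CNT 3 to 0.00 without CNT 2, and it was 0.09 without both control 1 and CNT 2. Ccnd1, the cyclin D1 gene, read 13.30, 13.28 and 12.91 in CNT and 12.35, 12.85 and 12.95 in control cultures (log2 fold change 0.44, SE 0.20). Dkk3 was at -0.59 (SE 0.31), Ccn4, a secreted matricellular protein gene, at -0.67 (SE 0.35) and Jun at -0.05 (SE 0.17). None of the 19 had an unadjusted p under 0.05. Whether beta-catenin acts on the listed genes, Dkk3 among them, in these cultures was not tested.

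Of 21 protocadherins, desmosomal and other non-classical cadherins, 15 were negative in log2 fold change and the median was -0.10, which was -0.04 without CNT 3 or without control 2, -0.02 with array weights, -0.19 without control 3 and -0.29 without the dimmest 30% of genes. Fat1, a giant cadherin that acts on actin and cell polarity, read 12.65, 12.41 and 12.71 in CNT and 13.04, 13.05 and 12.88 in control cultures, with no overlap (log2 fold change -0.40, SE 0.12, unadjusted p = 0.0138 from limma). Fat3 went the other way at a low signal, 6.56, 6.72 and 6.53 in CNT and 6.13, 6.09 and 6.52 in control cultures (log2 fold change 0.36, SE 0.14, unadjusted p = 0.0486 from limma). Fat4 and its ligand Dchs1 had log2 fold changes of -0.51 (SE 0.32) and -0.29 (SE 0.20), and Clstn1, a calsyntenin gene, one of -0.10 (SE 0.13). The smallest adjusted p in these lists was 0.999 in limma, and the rank product called none of them.

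**Figure D5:**
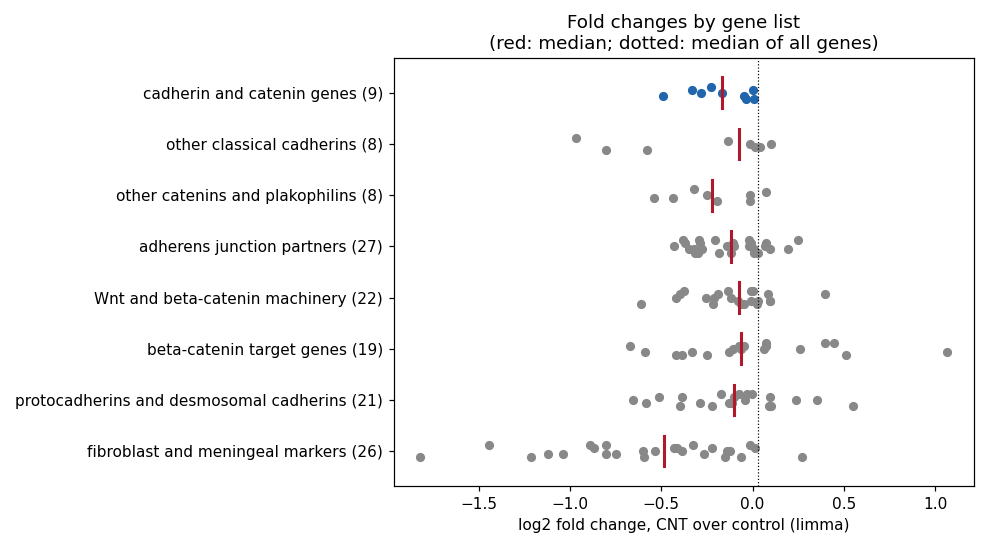
Log2 fold change (CNT over control, limma) of each measured gene, 1 row of points for each list with its number of genes, a red line for the list's median and a dotted line for the median of all genes, 0.03. The 9 cadherin and catenin genes lie between -0.49 and 0.01, and the 26 fibroblast and meningeal markers reach -1.82.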

How the data were processed

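RNA of 3 CNT and 3 control cultures was measured on 1 Affymetrix array each. The authors deposited log2 expression values made with RMA (version not given in the sources used here) for the manufacturer's probe sets, whereas the methods name EntrezGene custom files. RMA equalizes the distribution over arrays, so a shift of all genes cannot be seen.

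Of 31099 probe sets, 20826 are paired with 1 gene by GEO's platform annotation. The 436 paired with several genes, 9780 with none and 57 controls were left out. Each of 14217 genes was led by its probe set of highest mean. Groups were compared without pairing with lmFit and eBayes of limma 3.58.1 (R 4.3.3), two-sided. The p-values were adjusted by the Benjamini-Hochberg procedure across the genes, or across the probe sets for the further ones, and called under 0.05. The rank product over 9 pairs (1000 permutations, percentage of false positives 0.05, with the study's limits on fold) was written out anew. Both were tried on simulated data with noise independent between genes and planted changes larger than that of any member. These trials therefore do not show how often changes as small as those of the members would be called. The labels call the arrays of a group biological replicates.

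The members and lists were chosen with earlier results of these data known. All members were named, and from each related list at most 4 genes by lowest unadjusted p and 2 by highest mean. Alternatives are given in the closing section. The upstream sequences are RefSeq's.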

Additional observations from a re-analysis of the deposited data

How the results depend on the processing

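No member passed an adjusted p of 0.05 under any of the 16 alternatives (15 for Cdh6, which the filter on the dimmest 30% of genes removes), and the smallest adjusted p of a member was 0.585, for Cdh2 without control 3. Cdh2, Cdh6, Cdh11, Ctnna1, Ctnnb1 and Ctnnd1 kept a negative sign in all of them. The signs of Cdh10 and Ctnnd2, both close to 0, turned, to -0.016 and -0.016 with quantile normalization, -0.023 and -0.021 with cyclic loess, -0.032 and -0.037 with median centring, -0.015 and -0.031 with the beta-actin difference as a covariate, and -0.20 and -0.22 without control 1 and CNT 2. Without 1 array, Cdh10 ranged from -0.20 to 0.27, Ctnnd2 from -0.23 to 0.27 and Cdh13 from -0.57 to 0.0596, and the further Cdh13 probe sets from -0.47 to 0.17 and from -0.36 to 0.00207. The dim Cdh2 probe set ranged from -0.0830 to 0.0302. Without control 1 and CNT 2, a setting applied to the further probe sets after seeing the data, it was 0.0167 and the second Cdh11 probe set 0.0293. The 3 rescalings also took the median of all genes to -0.0054, -0.0052 and -0.008, against 0.03. The cause of the sign changes was not tested.

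The members at an unadjusted p under 0.05 were 1, and 0 without control 1 and CNT 2, and 0 to 2 without 1 array (2 without control 3, where Ctnnd1 joined Cdh2, and 1 without CNT 3, where it was Cdh11). The genes called by limma were 0, and 0 to 2 without 1 array (2 without control 3), while the rank product called 66. Genes at an unadjusted p under 0.05 were 443, and 755 with array weights, 677 with the replicate block, 294 without the dimmest genes, 116 without control 1 and CNT 2, and 206 to 927 without 1 array.

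The labels do not say whether cultures of equal number share a culture series. The deviations of same-numbered arrays from their group means correlated at -0.13, 0.36 and 0.51. Arrays of unlike number ran from -0.71 (CNT 3 with control 2) to 0.68 (CNT 1 with control 2). With 3 arrays in each group, these values cannot settle whether the cultures were paired. With the replicate block the Cdh2 log2 fold change was -0.33 (adjusted p = 0.973 from limma) and no member was called.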
